A study of Mus musculus with 39 samples.

Results

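Autophagy and lysosome genes were followed through 39 mouse RNA-seq libraries of hepatocytes and monocytes. The set holds 48 genes named one by one: 25 act in autophagosome formation or cargo choice, 20 in the lysosome, and 3 (Tfeb, Tfe3 and Mcoln1) regulate both. They are 48 of the 11556 gene symbols that the deposited files list in all. The 4 monocyte experiments list every one, and the hepatocyte files list 47, without Gla, the gene of lysosomal alpha-galactosidase.

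All mice were 8 to 12 weeks old, and fasting meant that food was taken out of the cage and the bedding changed, with water left in place. Hepatocytes came from livers of C57BL/6 mice that were fed (n = 3) or fasted (n = 2) for 4 h, or fed (n = 2) or fasted (n = 3) for 12 h. Sorted bone marrow monocytes came from C57BL/6 mice fed (n = 4) or fasted (n = 4) for 4 h, and fed (n = 3) or fasted (n = 4) for 17 h. A further marrow experiment set CCR2-/- mice (n = 3), which lack a chemokine receptor that monocytes use to leave the marrow, against C57BL/6 mice (n = 3), all of them fed. Monocytes sorted from the spinal cord were taken in EAE (experimental autoimmune encephalomyelitis), a mouse model in which immune cells attack myelin, from C57BL/6 animals that were fed (n = 4) or put through 4 weeks of 24 h fasting cycles (n = 4). Levels are given as TPM, a share of transcripts scaled to a fixed total, and differences as log2 of TPM + 1 with their standard error (SE). No label ties the libraries of a group to separate animals, so p-values measure the spread between libraries.

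Autophagy wraps cytoplasm in a double membrane and delivers it to the lysosome, where acid hydrolases break it down, and it is the classic cell response to lack of nutrients. The ULK kinase complex starts the process, a phosphatidylinositol 3-kinase marks the forming membrane, and 2 ubiquitin-like conjugation reactions attach proteins of the ATG8 family (LC3 and GABARAP) to it. Cargo receptors such as p62 (Sqstm1) tie cargo to ATG8 proteins. In the liver, autophagy during fasting releases amino acids, fatty acids and sugars, and in phagocytes the lysosome also digests what the cell has engulfed. The transcription factors TFEB and TFE3 move to the nucleus when nutrients are short and bind short palindromic elements in promoters of lysosomal genes, which ties the lysosome genes to the autophagy genes.

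The element was looked for in the promoters. RefSeq promoter windows of the GRCm38.p6 build, 250 bases before to 50 bases after an annotated start, were at hand for 38 of the 48 genes. The letters CACGTG occurred in a window of 12 of those 38 genes (31.6%), against 8.09% of 27025 mouse genes. The longer palindrome TCACGTGA, which contains the first, occurred in 6 (15.8%), namely Atg3, Atp6v0d1, Ctsa, Ctsd, Gla and Mcoln1, against 1.12% of genes. Both palindromes read the same on either strand, and a match is a description of letters and not a binding site. Stretches before the start of 6 genes are shown because they carry the element in genes of either branch of the set; capitals mark CACGTG or, where present, TCACGTGA.
Lamp1, chr8:13159085-13159160, plus strand: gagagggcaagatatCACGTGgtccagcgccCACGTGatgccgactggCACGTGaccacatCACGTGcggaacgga
Gla, chrX:134601179-134601247, minus strand: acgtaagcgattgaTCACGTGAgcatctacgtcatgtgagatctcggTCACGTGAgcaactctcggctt
Atg3, chr16:45158720-45158778, plus strand: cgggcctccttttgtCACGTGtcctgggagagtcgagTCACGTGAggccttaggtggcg
Gaa, chr11:119267808-119267843, plus strand: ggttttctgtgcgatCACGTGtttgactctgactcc
Bnip3, chr7:138909594-138909629, minus strand: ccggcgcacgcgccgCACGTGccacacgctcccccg
Ctsd, chr7:142388052-142388077, minus strand: tccccCACGTGacctgtatccagtca
The Ctsd stretch shown holds the hexamer alone; its longer palindrome lies nearer the start and is not printed. The Lamp1 stretch holds the hexamer 4 times within 76 bases that end at the annotated start. The Gla stretch holds the longer palindrome at 2 places, where its CACGTG core begins 227 and 194 bases before the start. Gla was listed for monocytes alone, and stood at 11.1 to 16.5 TPM in fasted marrow libraries at 4 h.

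Before the gene results, some libraries need to be named. The hepatocyte preparations held other liver cells in unequal amounts: the summed level of 14 Kupffer cell and macrophage markers was 1620 to 1660 TPM in fed and 2570 to 2660 TPM in fasted libraries at 4 h, but 235 to 241 TPM in fed and 898 to 908 TPM in fasted libraries at 12 h. The 9 hepatocyte markers were all present and summed to between 59600 and 88000 TPM. In the marrow, the 3 fed 17 h libraries stood apart from all others: with genes split by transcript length into 4 equal bins, the shortest bin took 61.3 to 64.1% of their TPM, against 32.4 to 41.1% in the other 18 marrow libraries. In the spinal cord, fed libraries 1 and 2 stood apart, with neutrophil marker sums of 169000 and 174000 TPM against 7700 to 25100 TPM in the other 6. The 9 monocyte markers were listed in every monocyte experiment.

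Across the 6 comparisons the genes behaved differently by tissue and time. In hepatocytes 25 of 47 genes passed the test at 4 h and 25 of 47 at 12 h (37.2% and 40.3% of all genes), with the lysosome genes mostly higher after fasting and the autophagy genes split. In marrow monocytes 1 of 48 passed at 4 h and 47 of 48 at 17 h (0.424% and 89.5% of all genes), and in spinal cord monocytes none did (2.43%). A gene was called when its adjusted p was under 0.05 (limma, Benjamini-Hochberg over all genes of the experiment).

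**Figure D1:**
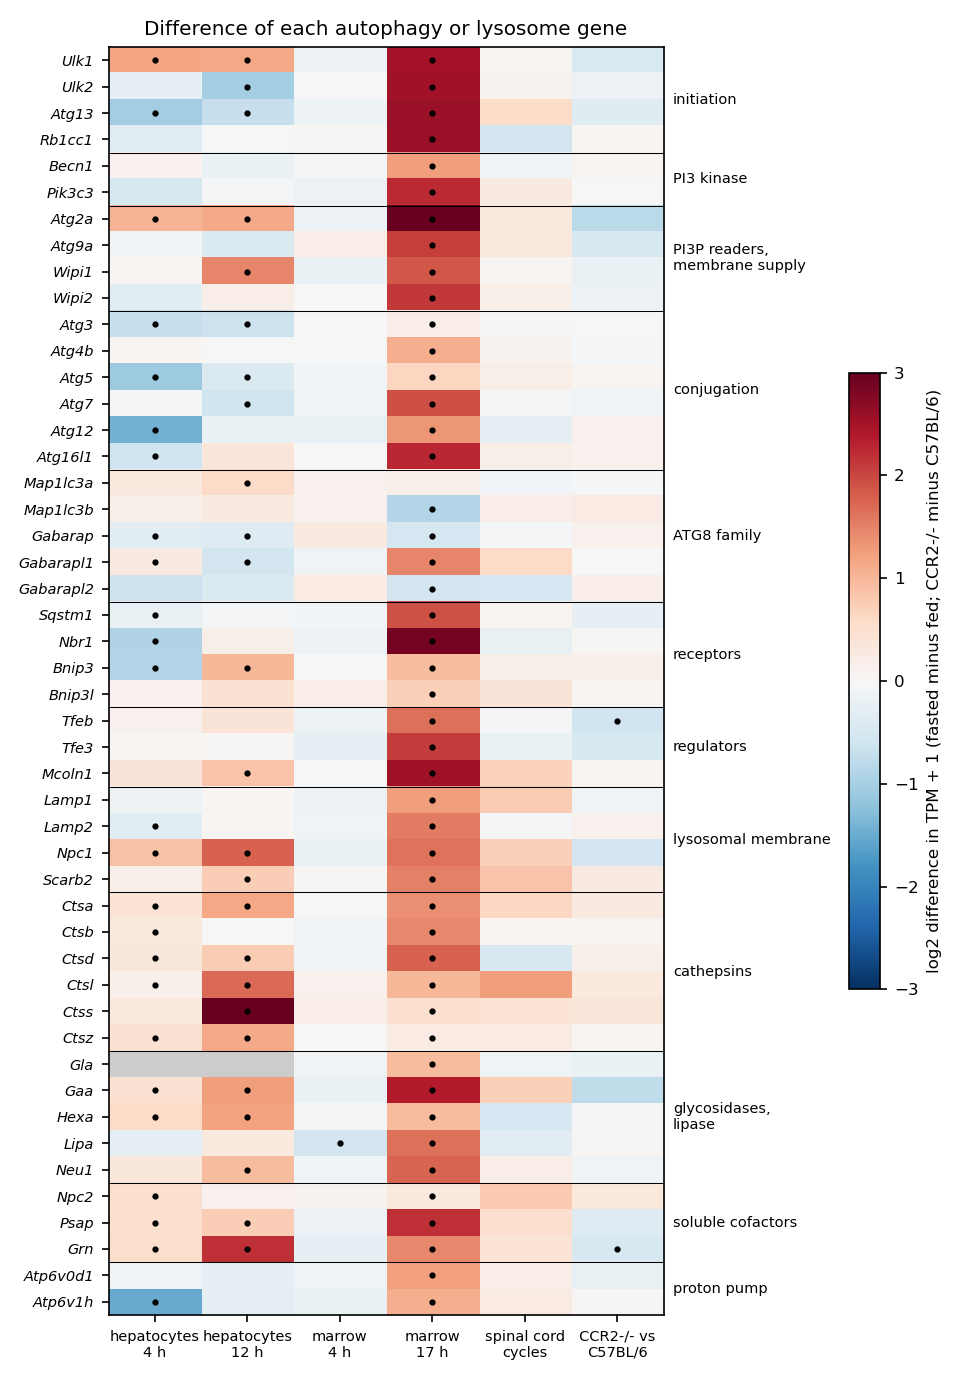
Heat map of the log2 difference in TPM + 1 of each of the 48 genes (rows, by role) in 6 comparisons (columns), fasted minus fed or CCR2-/- minus C57BL/6; dots mark genes called at an adjusted p under 0.05, grey marks Gla, which the hepatocyte files do not list, and colours end at 3. Cathepsin rows are red in both hepatocyte columns, except Ctsb near 0 at 12 h, and both proton pump rows are below 0 there, the marrow 17 h column is red except for 3 ATG8 genes, and marrow 4 h, spinal cord and CCR2-/- hold 1, 0 and 2 dots.

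After 4 h without food, hepatocytes held more RNA of lysosomal enzymes and their cofactors. Of the 19 lysosome genes tested, 11 rose and 2 fell, while 37.2% of all genes were called, 10.4% upward and 26.8% downward. The median log2 difference was 0.33 over the lysosome genes and -0.22 over all genes. The 6 cathepsins of the set, which are lysosomal proteases, went one way: Ctsa, Ctsb, Ctsd, Ctsl and Ctsz rose, and Ctss did not pass. Cathepsins outside the set went both ways: Ctsf (0.57) and Ctsh (0.34) rose, and Ctsc (-0.3) and Ctso (-0.64) fell. All 3 soluble cofactors rose, as did the glycosidases Gaa, which digests glycogen, and Hexa, which trims gangliosides. In the same contrast 7 of 14 Kupffer cell markers and 10 of 13 endothelial markers rose, with medians of 0.45 and 0.77, and their part in these values was not tested.

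Npc1, which exports cholesterol from the lysosome, showed the largest lysosomal rise at 4 h. It stood at 16.1, 17.2 and 16.8 TPM in the fed libraries and at 31.9 and 31.4 TPM in the fasted ones. The groups were well apart, with a log2 difference of 0.88 (SE 0.11, adjusted p = 0.00033). Hexa stood at 89.0, 96.2 and 86.3 TPM fed and 134 and 139 TPM fasted, a difference of 0.59 (SE 0.08, adjusted p = 0.00075). Grn, the gene of the lysosomal cofactor progranulin, stood at 328, 346 and 326 TPM fed and 484 and 474 TPM fasted, a difference of 0.52 (SE 0.05, adjusted p = 0.00014). Neither pair of groups overlapped, which held for 53.7% of all genes. Psap, the precursor of the saposins that help hydrolases reach lipids, stood at 480, 493 and 406 TPM fed and 617 and 670 TPM fasted (0.49, SE 0.09, adjusted p = 0.0024). The abundant cathepsins moved less. Ctsd rose from 661 ± 31.4 TPM (SD, n = 3) to 834 ± 37.1 (n = 2), a difference of 0.34, and Ctsb rose from 583 ± 15.1 to 716 ± 45.6 TPM, a difference of 0.29. Ctsl moved least, from 397 ± 8.87 to 442 ± 19.4 TPM (0.15, SE 0.05, adjusted p = 0.032). Its call was lost without fed library 2 or 3 or fasted library 2. The fits without a mean-variance trend, with a replicate block and with the 4 h libraries alone lost it too.

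Neither proton pump subunit of the set rose, and of the 4 lysosomal membrane genes Npc1 rose and Lamp2 fell. Among pump genes outside the set, Atp6v0b rose (0.56, adjusted p = 0.021), and Atp6v1c1 (-0.78), Atp6v1e1 (-0.32), Atp6v1g1 (-0.75) and Atp6ap2 (-0.72) fell. Atp6v1h, a subunit of the vacuolar proton pump that acidifies the lysosome, had the largest fall of the set, from 39.1, 39.8 and 40.9 TPM to 11.3 and 15.6 TPM (-1.52, SE 0.13, adjusted p = 6.1e-05). Lamp2, a main protein of the lysosomal membrane, fell from 379 ± 16.2 to 303 ± 14.2 TPM (-0.33, SE 0.06, adjusted p = 0.0023). Lamp1 stood at 580, 635 and 602 TPM fed and 507 and 577 TPM fasted and did not pass (adjusted p = 0.074).

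Of the 25 autophagy genes of hepatocytes, 3 rose and 9 fell at 4 h, where 10.4% of all genes rose and 26.8% fell. Their median of -0.26 was near that of all genes, -0.22. Ulk1 and Atg2a rose most. Ulk1, the kinase that triggers autophagosome formation, stood at 13.0, 20.8 and 18.7 TPM fed and at 52.1 and 31.1 TPM fasted. Atg2a, which moves lipids into the growing membrane, stood at 14.9, 14.2 and 18.6 TPM fed and at 27.6 and 40 TPM fasted. Both pairs of groups were apart, as in 53.7% of all genes, although the 2 fasted libraries differed from each other. The log2 differences were 1.18 (SE 0.30, adjusted p = 0.014) and 1.03 (SE 0.23, adjusted p = 0.0083). Without fasted library 1, and with a replicate block, the Ulk1 call was lost.

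Of 6 conjugation genes, 4 fell and none rose at 4 h, beside the 26.8% of all genes that fell. Atg12 and Atg5, whose products join into the conjugate that places ATG8 proteins on the membrane, fell by 1.43 (SE 0.17, adjusted p = 0.00028) and by 1.08 (SE 0.13, adjusted p = 0.00031) on the log2 scale. Atg12 stood at 10.9, 11.9 and 10.8 TPM fed and at 3.18 and 3.92 TPM fasted. Atg5 stood at 35.6, 36.0 and 35.7 TPM fed and at 17.5 and 15.3 TPM fasted. Both genes were lower in each fasted library than in any fed one, and 53.7% of all genes had no overlap between the 4 h groups. Atg13, a partner of ULK1, fell from 37.9 ± 6.13 to 17.7 ± 2.13 TPM (-1.05, SE 0.18, adjusted p = 0.0023).

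Of the 4 cargo receptors, 3 fell at 4 h, again beside 26.8% of all genes. Nbr1, a receptor for ubiquitin-tagged cargo, stood at 49.3, 47.1 and 46.7 TPM fed and at 24.0 and 25.9 TPM fasted (-0.91, SE 0.09, adjusted p = 8.5e-05). Bnip3, a receptor for mitochondria, stood at 195, 218 and 181 TPM fed and at 108 and 104 TPM fasted (-0.89, SE 0.09, adjusted p = 0.00011). Neither receptor's groups overlapped, which held for 53.7% of all genes. Sqstm1 fell by 0.23 (adjusted p = 0.018), a call that was lost when libraries were rescaled. The ATG8 family divided. Gabarapl1 rose by 0.26 (SE 0.07, adjusted p = 0.017), a call lost without fed library 3 or fasted library 2. That call was also lost without a mean-variance trend, with a replicate block and with the 4 h libraries alone. Gabarap fell by 0.33 (SE 0.07, adjusted p = 0.0069). Map1lc3b, the gene of LC3B, stood at 126 ± 10.5 TPM fed and 143 ± 30.4 TPM fasted without passing.

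**Figure D2:**
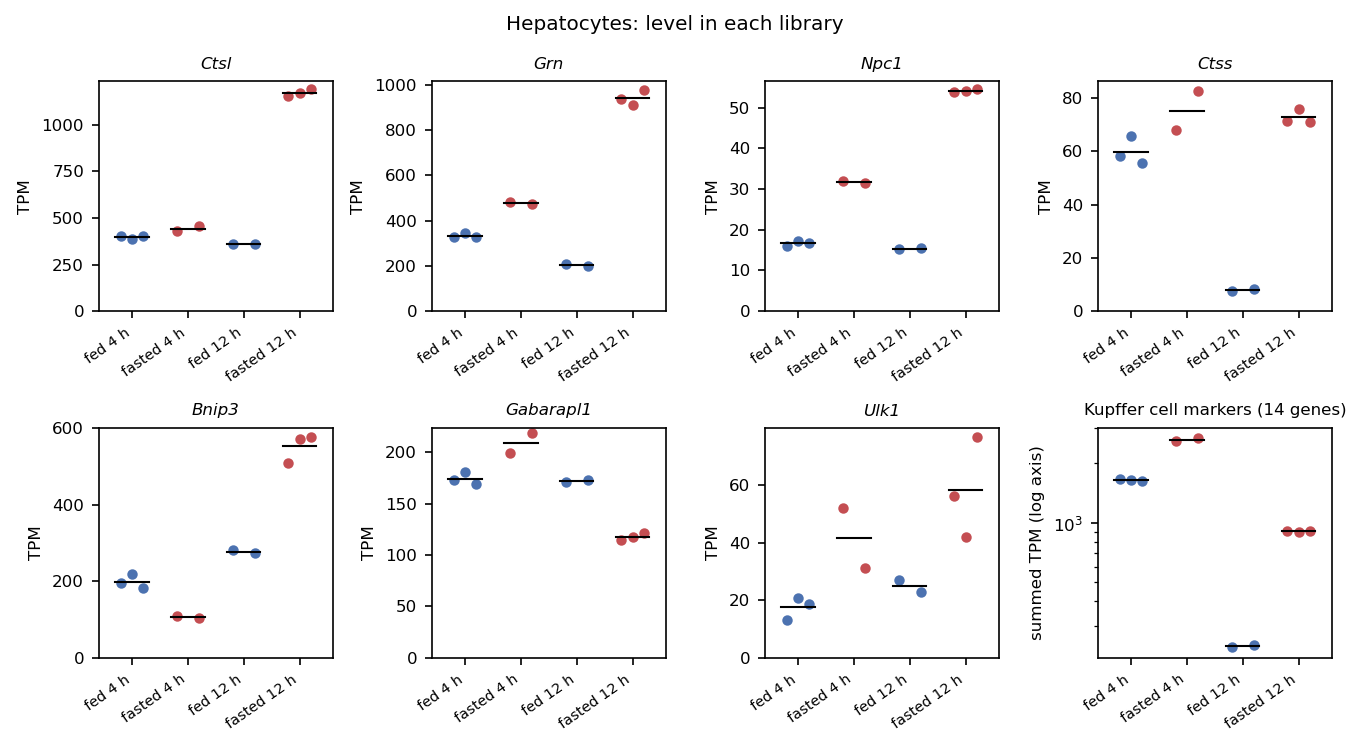
Level in TPM of 7 genes in each of the 10 hepatocyte libraries (points; bars are group means), with the summed TPM of 14 Kupffer cell markers on a log axis in the last panel; blue is fed and red is fasted. Ctsl, Grn and Npc1 are highest in the 3 fasted 12 h libraries, Bnip3 is below its fed group at 4 h and above it at 12 h, and Gabarapl1 does the reverse, while the marker sum is highest in the fasted 4 h libraries.

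After 12 h without food the lysosomal rise over fed hepatocytes was larger. The fed 12 h libraries held more Lamp2, Lipa, Scarb2 and Atp6v1h than the fed 4 h ones, and less of every other lysosome gene tested. Of all genes, 43.7% were higher and 36.4% lower there. Of 19 lysosome genes, 12 rose and none fell, while 40.3% of all genes were called, 23.4% upward. The median was 0.76 over the lysosome genes and 0.05 over all genes. Ctsl, the gene of the protease cathepsin L (chr13:64359337-64370890, minus strand, GRCm38), stood at 361 and 362.5 TPM in the fed libraries and at 1156, 1170 and 1191 TPM in the fasted ones. It was the highest of all 47 genes in fasted 12 h hepatocytes, and the difference was 1.69 (SE 0.05, adjusted p = 1.1e-08). Grn stood at 210 and 199 TPM fed and at 939, 910 and 976 TPM fasted, a difference of 2.20 (SE 0.05, adjusted p = 6e-09). Npc1 stood at 15.2 and 15.4 TPM fed and at 53.8, 54.1 and 54.5 TPM fasted, a difference of 1.76 (SE 0.11, adjusted p = 1.4e-06). In each of these genes the fasted libraries were far above the fed ones and close to each other. Groups did not overlap for 71.4% of all genes at 12 h.

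Other lysosomal hydrolases rose at 12 h by a log2 difference of about 1. Gaa stood at 62.2 and 66.6 TPM fed and at 156, 149 and 157 TPM fasted (1.25, SE 0.09, adjusted p = 3.9e-06). Hexa rose by 1.21, Ctsa by 1.15, Ctsz by 1.14 and Neu1, the lysosomal sialidase, by 0.95. Ctsd, the main aspartic protease, stood at 320 and 306 TPM fed and at 524, 520 and 549 TPM fasted (0.76, SE 0.06, adjusted p = 6.4e-06). Of the membrane proteins, Scarb2, the carrier of glucocerebrosidase, rose by 0.74 (SE 0.15, adjusted p = 0.0028). Lamp1 (0.07), Lamp2 (0.05), Ctsb (0.01) and Npc2 (0.14) did not pass, although they code for abundant or defining lysosomal proteins. Neither proton pump subunit of the set passed. Among pump genes outside the set, Atp6v0b (0.78), Atp6v0c (0.59), Atp6ap1 (0.54) and Atp6ap2 (0.9) rose at 12 h, and Atp6v1g1 (-0.94) fell. Mcoln1, the calcium channel that acts upstream of TFEB, stood at 48.4 and 49.8 TPM fed and at 87.8, 94.1 and 85.8 TPM fasted (0.85, SE 0.16, adjusted p = 0.0023). Tfeb itself stood at 7.94 and 8.03 TPM fed and at 12.8, 9.40 and 10.2 TPM fasted and did not pass (adjusted p = 0.14), nor did Tfe3 (adjusted p = 0.90).

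Ctss had the largest log2 difference of the set at 12 h. It codes for cathepsin S, a protease of antigen-presenting cells. It stood at 7.58 and 8.32 TPM in fed and at 71.4, 76.0 and 71.1 TPM in fasted libraries (3.04, SE 0.12, adjusted p = 8.8e-08). All 14 Kupffer cell markers and all 13 endothelial markers rose in the same contrast, with medians of 2.71 and 3.23. Fewer such cells and less RNA per cell cannot be told apart in bulk libraries, and the part of other cells in the lysosomal rise was not tested. Beside them stand the fasted 4 h libraries, where the Kupffer marker sum was highest. Ctsl, Grn, Npc1, Gaa and Scarb2 were higher in each fasted 12 h library than in either of these, Ctss, Ctsa and Ctsz overlapped, and Ctsd, Hexa and Psap were lower. In all, 22 of 47 genes were higher in the fasted 12 h than in the fasted 4 h libraries, against 49.7% of all genes. Of the 47 genes, 17 were higher in all 3 fasted 12 h libraries than in all 5 fed libraries of both times, which held for 25.0% of all genes. Of the lysosome genes these were Ctsa, Ctsl, Ctss, Ctsz, Gaa, Lipa, Npc1, Grn and Scarb2. Ctsd, Hexa, Neu1 and Psap, although called at 12 h, were not above all fed libraries, because the fed 4 h libraries held more of them than the fed 12 h ones. Ctsd, at 520 to 549 TPM in fasted 12 h libraries, was below all fed 4 h ones (629 to 692 TPM). Hexa, Neu1 and Psap overlapped between these groups.

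At 12 h, 5 of 25 autophagy genes were higher and 7 lower, with 23.4% of all genes higher and 16.8% lower. Their median was -0.03, and that of all genes 0.05. Ulk1 stood at 26.9 and 22.7 TPM fed and at 56.1, 41.9 and 76.7 TPM fasted (1.16, SE 0.30, adjusted p = 0.012), a call lost without fed library 2 and with a replicate block. Atg2a rose from 14.3 ± 0.113 TPM (n = 2) to 33.5 ± 8.05 TPM (n = 3), a difference of 1.14 (SE 0.23, adjusted p = 0.0035). Both had also risen at 4 h. Wipi1, which binds the lipid that marks the forming membrane, stood at 4.79 and 6.31 TPM fed and at 16.9, 17.1 and 16.7 TPM fasted (1.46, SE 0.27, adjusted p = 0.0019). Bnip3 stood at 281 and 273 TPM fed and at 508, 572 and 577 TPM fasted (0.99, SE 0.09, adjusted p = 1.8e-05). Its fasted libraries were above every fed one, where at 4 h they had been below. Such separation, in either direction, held for 71.4% of all genes at 12 h and 53.7% at 4 h.

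The 7 genes that fell at 12 h belong to initiation, conjugation and the ATG8 family. Ulk2, the relative of Ulk1, stood at 26.5 and 28.7 TPM fed and at 13.6, 13.3 and 12.6 TPM fasted (-1.01, SE 0.18, adjusted p = 0.0018), the opposite direction to Ulk1. Atg13 fell again, from 31.4 and 37.1 TPM to 17.2, 21.6 and 23.5 TPM (-0.70, SE 0.18, adjusted p = 0.013). Gabarapl1 stood at 172 and 173 TPM fed and at 115, 117 and 121 TPM fasted (-0.55, SE 0.07, adjusted p = 0.00019). Each of these genes was lower in every fasted library than in any fed one, and 71.4% of all genes had no overlap between the 12 h groups. Of the conjugation genes, Atg3 fell by 0.65, Atg7, the enzyme that activates both ubiquitin-like proteins, fell by 0.60, and Atg5 fell by 0.43, while Atg12 (-0.20) and Atg16l1 (0.36) did not pass. Calls of Atg3, Atg5, Atg7 and Atg13 were lost when single libraries were left out (fed library 2 for each). Those of Atg3, Atg5 and Atg13 were also lost with a replicate block. Of the other ATG8 genes Gabarap fell by 0.39 (SE 0.07, adjusted p = 0.0019) and Map1lc3a, the gene of LC3A, rose by 0.58 (SE 0.11, adjusted p = 0.0022).

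Directions held under rescaling in hepatocytes. All 14 genes called higher at 4 h and all 18 at 12 h were also called higher under each of 4 rescalings (quantile normalization, centring on the median, and removal of either of 2 transcript-length trends). Of those called lower, 7 of 11 at 4 h and 6 of 7 at 12 h were called lower under all 4, and none changed sign. How many of all genes held in this way was not counted. The split of calls did move: at 4 h it was 14 higher and 11 lower as deposited and 20 and 7 with the longest-transcript trend removed, and at 12 h 18 and 7 became 18 and 15. Over all genes, 928 higher and 2403 lower became 1426 and 1485 at 4 h. At 12 h, 2099 and 1510 became 1665 and 2006.

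The fasting difference itself changed between 4 h and 12 h for 21 of 47 genes, upward for 19 and downward for 2, while 30.7% of all genes were called, 23.2% upward and 7.43% downward. The time points were separate sets of libraries, so time and preparation cannot be told apart. The fed libraries differed too. In 24 of 47 genes the fed 12 h libraries were below all fed 4 h ones and in 16 above, against 36.4% and 43.7% of all genes. Ctss overlapped between the fasted groups of both times, while its fed libraries held 55.4 to 65.9 TPM at 4 h and 7.58 and 8.32 TPM at 12 h. Ctss (2.72, SE 0.17), Bnip3 (1.88, SE 0.12), Grn (1.68, SE 0.08) and Ctsl (1.54, SE 0.07) changed most, with adjusted p-values of 7e-06, 8.8e-06, 1.1e-06 and 8.3e-07. Gabarapl1 changed by -0.81 (SE 0.10, adjusted p = 0.00035), since it had risen at 4 h and fell at 12 h. Ulk1 (-0.02, SE 0.42) and Atg2a (0.11, SE 0.33) did not pass, and their intervals are wide. With either length trend removed the split was 10 higher and 7 lower or 9 and 7. Over all genes it was 967 higher and 1268 lower or 989 and 1247. Under all 4 rescalings 9 of the 19 upward calls held, a count not made for all genes.

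Genes of the same pathway outside the set were counted from lists that were likewise chosen with results known. Of 46 other lysosome genes tested in hepatocytes, 11 rose and 8 fell at 4 h, and 20 rose and 3 fell at 12 h. Of all genes 10.4% rose and 26.8% fell at 4 h, and 23.4% rose and 16.8% fell at 12 h. Of those with at least 10 TPM, Laptm5, a lysosomal membrane protein of blood cells, rose most at 12 h (2.93, adjusted p = 8.6e-08), followed by Lgmn, the protease legumain, from 23.4 to 116 TPM (2.26, adjusted p = 9.7e-08) and Cd68, a macrophage marker (1.99, adjusted p = 1e-05). Among these genes, the cathepsin Ctsf rose (1.02) and the cathepsin Ctsc fell (-0.83) at 12 h. Of 32 other autophagy genes, 4 rose and 8 fell at 4 h, and 7 rose and 5 fell at 12 h, close to the shares of all genes. Atg16l2, a relative of Atg16l1, rose most at 12 h (2.36, adjusted p = 7.3e-05). Fam134b, a receptor for autophagy of the endoplasmic reticulum, rose from 57.7 to 167 TPM at 12 h (1.51, adjusted p = 0.00036), and Optn, a cargo receptor, rose from 69.8 to 154 TPM (1.13, adjusted p = 2.3e-05). Of the 11 tested members with CACGTG in a promoter window, 6 rose and 3 fell at 12 h, and of the 26 with a window but without it, 10 rose and 4 fell, where 23.4% of all genes rose and 16.8% fell. The 3 that fell with the element were Atg3, Atg5 and Atg7.

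In marrow monocytes 4 h without food left these genes close to their fed levels. Of 48 genes, 1 fell and none rose, while 0.424% of all genes were called, and 5 of the 48 had an unadjusted p under 0.05, as did 1468 of all 9428 genes. The gene that fell was Lipa, the acid lipase that frees fatty acids and cholesterol from lipoproteins and lipid droplets. The gene lies at chr19:34492318-34527474 on the minus strand (GRCm38). It stood at 152, 183, 187 and 195 TPM in fed and at 138, 107, 115 and 125 TPM in fasted libraries, so the groups did not overlap, as in 8.81% of all genes (-0.56, SE 0.10, adjusted p = 0.046). The call was lost in the fit without a mean-variance trend, in the fit that was not robust and in 6 of 8 fits that left out 1 library. Log2 differences of the 48 genes ran from -0.56 to 0.26. Tfeb (-0.16), Ulk1 (-0.18), Sqstm1 (-0.08), Map1lc3b (0.12) and Ctsd (-0.08) did not pass. Ctss and Ctsl did not overlap between groups, at 1905 to 2017 TPM fed and 2049 to 2630 TPM fasted for Ctss and 38.0 to 40.7 TPM fed and 41.9 to 43.6 TPM fasted for Ctsl, but did not pass either (adjusted p = 0.28 and 0.49). Of 48 other lysosome genes and 31 other autophagy genes, none passed.

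At 17 h nearly every gene differed between fed and fasted marrow monocytes, and so did nearly every gene outside the set. Of 48 genes, 44 were higher in fasted monocytes and 3 lower, while 89.5% of all genes were called, 75.4% upward. The median was 1.49 over the 48 genes and 1.18 over all genes. Atg2a stood at 0.964, 1.00 and 0.628 TPM in fed and at 11.4, 11.2, 12.4 and 21 TPM in fasted libraries (2.97, SE 0.21, adjusted p = 5.6e-07). Nbr1 stood at 8.64, 8.06 and 8.80 TPM fed and at 68.9, 61.2, 63.2 and 80.5 TPM fasted (2.86, SE 0.12, adjusted p = 7.2e-08). Both genes were lower in every fed library, and fasted library 4 held the most of each. The ULK complex followed. Atg13 stood at 6.26, 6.96 and 5.04 TPM fed and at 38.5, 35.9, 37.8 and 56.6 TPM fasted (2.59, SE 0.17); 88.3% of all genes had no overlap between these groups. Rb1cc1, the scaffold of the complex, stood at 32.0, 27.2 and 19.8 TPM fed and at 182, 162, 152 and 144 TPM fasted (2.58, SE 0.15). The kinases Ulk2 (2.52) and Ulk1 (2.50) were likewise without overlap, Ulk1 at 1.83, 4.92 and 1.09 TPM fed and 14.9, 18.1, 16.5 and 21.1 TPM fasted. Mcoln1 stood at 23.8, 17.9 and 13.2 TPM fed and at 102, 108, 102 and 125 TPM fasted (2.54, SE 0.17), and Sqstm1 at 53.5, 50.4 and 40.3 TPM fed and at 164, 182, 179 and 207 TPM fasted (1.91, SE 0.12). Of the lysosome genes, Lamp1 stood at 512, 476 and 415 TPM fed and at 1043, 1125, 1114 and 1200 TPM fasted (1.26, SE 0.10, adjusted p = 8.7e-07), a call lost after centring and with the median length trend removed (adjusted p up to 0.76), and Ctsd at 122, 112 and 99.8 TPM fed and at 315, 425, 413 and 379 TPM fasted (1.77, SE 0.12, adjusted p = 4.7e-07). The cathepsins spread widely, from Ctsd down to Ctss, at 1510, 1385 and 1500 TPM fed and 2198, 2098, 2101 and 1845 TPM fasted (0.49, SE 0.09, adjusted p = 0.00046), and Ctsz (0.25, adjusted p = 0.035).

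Against the other marrow libraries, the fed group was the one that stood away. In 40 of the 48 genes all 3 fed 17 h libraries were below all 18 other marrow libraries, and in 1, Map1lc3b, above them, which held for 72.5% and 10% of all genes shared by the marrow files. The 4 fasted 17 h libraries were above all 14 libraries of the other marrow experiments in 4 genes (Map1lc3a, Wipi1, Bnip3l and Ctsl) and below them in 2 (Lamp1 and Hexa), against 1.48% and 13.8% of all genes. Files of separate experiments were not normalized together, so these ranks describe the libraries only. Tfeb shows the pattern: it stood at 29.2, 25.8 and 23.5 TPM in fed 17 h libraries, at 75.6, 90.1, 79.9 and 95.1 TPM in fasted 17 h libraries, and between 64.4 and 117 TPM in the others. Monocyte markers were present in both 17 h groups, with sums of 73100 to 79000 TPM fed and 81100 to 91100 TPM fasted. Gene by gene they differed more than these sums. Of the 9 markers, 7 were called higher in fasted libraries and 2 lower, with a median log2 difference of 1.89. Of all genes, 75.4% were called higher, and their median was 1.18. The part of cell differences in the 17 h values was not tested.

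**Figure D3:**
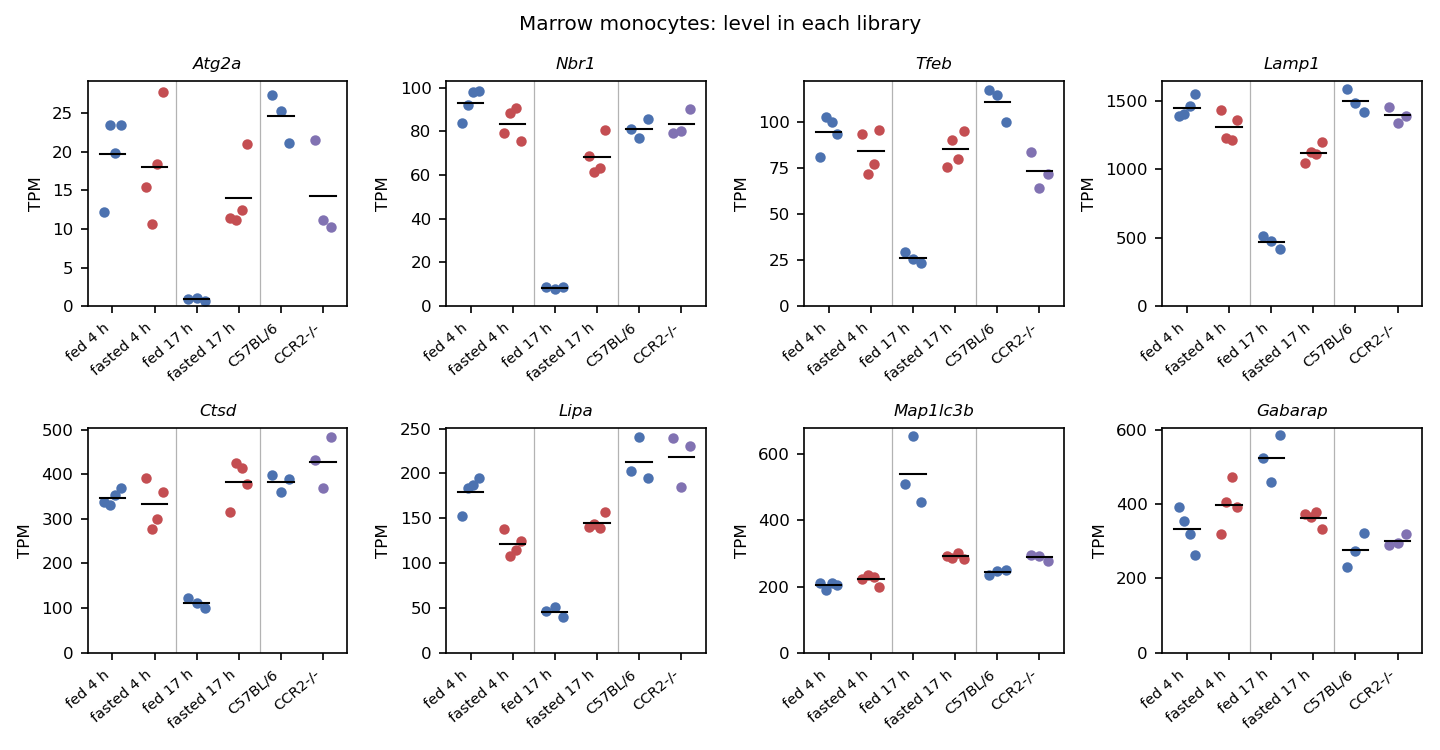
Level in TPM of 8 genes in each of the 21 marrow monocyte libraries (points; bars are group means), with lines between the 3 experiments; blue is fed, red fasted and purple CCR2-/-. The 3 fed 17 h libraries are the lowest for Atg2a, Nbr1, Tfeb, Lamp1, Ctsd and Lipa and the highest for Map1lc3b, and Lipa is lower in fasted than in fed libraries at 4 h.

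The difference at 17 h ran with transcript length. Over all genes with an annotated length, split into the same kind of bins, the median log2 difference was 0.14 in the shortest bin, 0.78 and 1.45 in the middle bins and 1.79 in the longest. Over the members it was 1.40, 0.94, 1.75 and 2.08. Lengths are medians over a gene's transcripts in GENCODE M21, protein-coding ones where it has any. They can fall short of the transcript a cell uses: 898 nt for Rb1cc1, whose longest is 7607 nt, and 511 nt for Mcoln1, whose longest is 2065 nt. For Tfeb the median is 551 nt and the longest 2342 nt. The cause of the shift in the fed libraries was not tested.

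**Figure D4:**
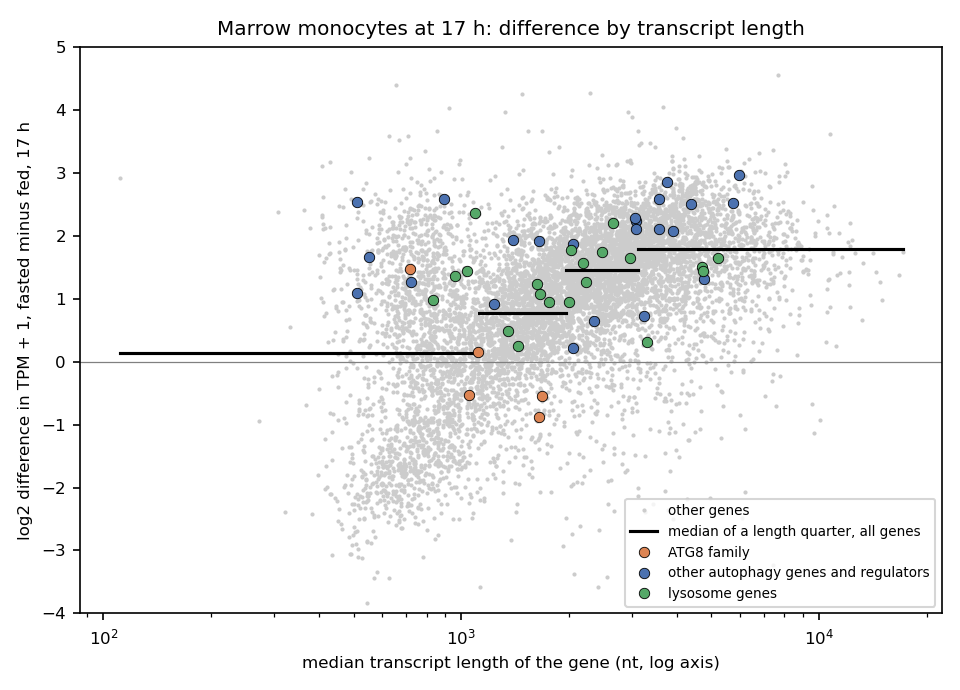
Log2 difference in TPM + 1, fasted minus fed at 17 h, against median transcript length (nt, log axis) for all genes (grey) and for the members by class; black bars are medians of all genes in each of 4 length bins. The grey cloud rises with length from a median of 0.14 to 1.79, and Map1lc3b, Gabarap and Gabarapl2 lie below 0 at lengths where the medians of all genes are above it.

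Rescaling left a smaller set of differences at 17 h. Of the 44 genes higher as deposited, 20 were called higher under each of the 4 rescalings, 18 changed sign under at least 1, and the split of calls was 36 higher and 5 lower after quantile normalization (74.5% of all genes called) and 28 and 10 after centring on the median (77.3%). With the median length trend removed it was 29 and 10 (71.1%), and with the longest 28 and 10 (67.8%). Over all genes the splits were, in that order, 3860 higher and 2942 lower, 3737 and 3323, 3418 and 2882, and 3444 and 2565. How many of all genes held under all 4 rescalings was not counted, so the 20 have no background share. The 20 were Ulk1, Ulk2, Atg13 and Rb1cc1 of the initiation complex, Pik3c3, Atg2a, Atg9a, Wipi1, Wipi2, Atg7, Atg16l1, Sqstm1 and Nbr1, all 3 regulators (Tfeb, Tfe3 and Mcoln1), and 4 lysosome genes (Ctsd, Gaa, Neu1 and Psap). With the median length trend removed, Tfeb differed by 1.81 (SE 0.13, adjusted p = 9.6e-07), Nbr1 by 1.22 (SE 0.10, adjusted p = 3.2e-06) and Atg2a by 1.23 (SE 0.16, adjusted p = 7.4e-05). The Tfeb value rests on a median length of 551 nt, where its longest transcript has 2342 nt. Among the 18 that changed sign were Ctsb, Ctsl, Ctss, Bnip3, Hexa, Npc1 and Atp6v1h.

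Of the 5 ATG8 genes, 3 were lower in fasted monocytes. Map1lc3b stood at 510, 657 and 455 TPM in fed and at 292, 285, 302 and 285 TPM in fasted 17 h libraries (-0.87, SE 0.12, adjusted p = 5.9e-05). Gabarap stood at 523, 461 and 587 TPM fed and at 372, 366, 380 and 332 TPM fasted (-0.52, SE 0.10, adjusted p = 0.00071). Gabarapl2 stood at 168, 172 and 224 TPM fed and at 132, 138, 128 and 113 TPM fasted (-0.54, SE 0.12, adjusted p = 0.0017). All 3 were lower in each fasted library than in any fed one, while 88.3% of all genes had no overlap between these groups. All 3 were called lower under each of the 4 rescalings. Map1lc3a overlapped between the groups and did not pass (0.15). Gabarapl1, of the same family, went the other way, from 12.2, 8.22 and 9.94 TPM to 29.6, 29.9, 30.3 and 28.5 TPM (1.47, SE 0.13, adjusted p = 2.6e-06), a call that quantile normalization ended. In the fed 4 h libraries, Map1lc3b stood at 190 to 210 TPM and Gabarap at 262 to 392 TPM.

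The change of the fasting difference from 4 h to 17 h passed for 45 of 48 genes, upward for 42 and downward for 3, against 88.0% of all genes, 75.1% upward and 12.9% downward. Atg2a (3.13, SE 0.38) and Nbr1 (3.02, SE 0.14) led, with adjusted p-values of 6e-07 and 7e-11, and Map1lc3b changed by -0.99 (SE 0.14, adjusted p = 4.1e-06). The shift of the fed 17 h libraries enters each of these values. Under rescaling 20 of the 42 upward calls and all 3 downward calls held throughout, a count not made for all genes. After centring the split was 29 higher and 10 lower, and over all genes 3489 higher and 2936 lower.

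Fed marrow monocytes without CCR2 differed from C57BL/6 ones in few of these genes. Of 48, 2 were lower and none higher, while 4.38% of all genes were called, 3.74% lower and 0.641% higher, and 16 had an unadjusted p under 0.05, as did 2525 of all 9210 genes. Tfeb stood at 117, 115 and 100 TPM in C57BL/6 and at 83.8, 64.4 and 72 TPM in CCR2-/- libraries (-0.59, SE 0.11, adjusted p = 0.044). Grn stood at 1070.0, 926 and 862 TPM in C57BL/6 and at 757, 634 and 646 TPM in CCR2-/- libraries (-0.49, SE 0.10, adjusted p = 0.047). Neither gene's groups overlapped, and 33.3% of all genes had no overlap. Tfeb was called lower under all 4 rescalings, and Grn lost its call after quantile normalization and after centring. Leaving out 1 library at a time gave between 0 and 9 called genes: both calls were lost without C57BL/6 library 1 or 2 or CCR2-/- library 2 or 3. Both were also lost in the fit without a mean-variance trend. Over all alternatives that lost them, adjusted p in limma reached 0.16 for Tfeb and 0.17 for Grn. Without CCR2-/- library 1 the 9 lower genes were Tfeb, Tfe3, Ulk1, Atg2a, Atg9a, Atg13, Gaa, Npc1 and Grn, with Atg2a at -1.12 and Gaa at -1.0, and 11.5% of all genes were called. With the median length trend removed, Atg12 and Scarb2 were also called, higher (6.66% of all genes), and with the longest, Map1lc3b, Ctsa and Scarb2 (7.71%). With the replicate number as a block, 12 of the 48 genes were called, 3 higher and 9 lower. So were 1423 of all 9210 genes, 281 higher and 1142 lower. Ctss stood at 2209 to 2474 TPM in CCR2-/- and at 1516 to 2106 TPM in C57BL/6 libraries without passing (0.36, adjusted p = 0.095). The 9 monocyte markers summed to 69400 to 78300 TPM in CCR2-/- and 55800 to 68900 TPM in C57BL/6 libraries, and their part in these values was not tested.

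In spinal cord monocytes of mice with EAE, none of the 48 genes passed after 4 weeks of fasting cycles, while 2.43% of all genes were called in the limma fit, 1.58% higher and 0.859% lower. An unadjusted p under 0.05 was reached by 2, Ctsl and Scarb2, and by 1950 of all 9079 genes, and Hexa was called lower after centring on the median (-0.74, adjusted p = 0.032, with 7.57% of all genes called) and with the median (-0.71, adjusted p = 0.046, 7.01%) or the longest (-0.77, adjusted p = 0.038, 5.75%) length trend removed. The fed libraries fell into pairs. Lamp1 stood at 318 and 387 TPM in fed libraries 1 and 2, at 1256 and 1273 TPM in fed libraries 3 and 4, and at 845, 1380, 1199 and 1154 TPM in the fasted ones. Psap stood at 708 and 743 TPM, at 2278 and 3763 TPM, and at 1713 to 2303 TPM in the same groups. In 20 of the 48 genes fed libraries 1 and 2 were both below the other 6, and in 6 above, against 57.7% and 8.11% of all genes. The 6 were Atg7, Map1lc3a, Gabarap, Gabarapl2, Wipi1 and Ctsd. The same 2 libraries carried the high neutrophil marker sums and less of the 9 monocyte markers than fed libraries 3 and 4 (29000 and 33500 against 51600 and 52700 TPM). The fasted libraries held 31300 to 44200 TPM of the monocyte markers. The part of such cell differences in these values was not tested.

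With fed libraries 3 and 4 as the only fed ones, 3 of 48 genes passed, with 8.53% of all genes called. These fed libraries also held more monocyte markers than any fasted one (51600 and 52700 against 31300 to 44200 TPM). Their macrophage marker sums were 1150 and 1420 TPM, against 724 to 957 TPM fasted. Their microglia marker sums were 244 and 227 TPM, against 142 to 166 TPM fasted. Neutrophil and endothelial sums overlapped. The part of these cells in the values below was not tested. Wipi1 stood at 14.1 and 9.95 TPM in those fed libraries and at 31.5, 32.3, 27.9 and 22.2 TPM in the fasted ones (1.19, SE 0.24, adjusted p = 0.022). Hexa stood at 526 and 511 TPM fed and at 261, 234, 212 and 303 TPM fasted (-1.05, SE 0.19, adjusted p = 0.015). Lipa stood at 73.0 and 79.5 TPM fed and at 34.1, 40.2, 29.6 and 45.7 TPM fasted (-1.03, SE 0.21, adjusted p = 0.024). In all 3 genes fed libraries 1 and 2 lay elsewhere, at 57 and 57.5 TPM for Wipi1, 237 and 265 TPM for Hexa and 26.5 and 31.0 TPM for Lipa, which for Hexa is within the range of the fasted libraries and for Lipa within it or, in library 1, below it. Ctsl was higher in 3 of 4 fasted libraries (338, 212 and 144 TPM) than in any fed one (53.0 to 102 TPM), and fasted library 1 was at 65.0 TPM, so it did not pass with all libraries (1.25, SE 0.45, adjusted p = 0.17).

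**Figure D5:**
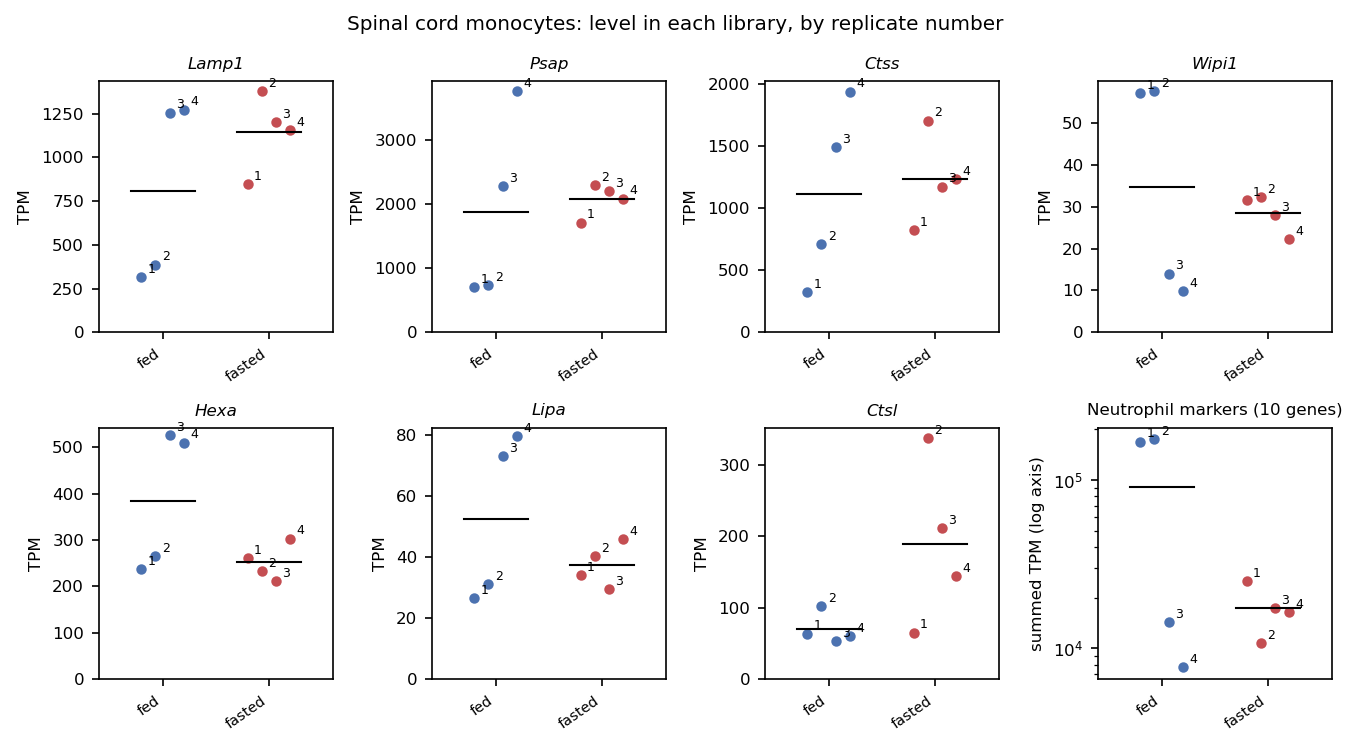
Level in TPM of 7 genes in each of the 8 spinal cord libraries (points with their replicate numbers; bars are group means), with the summed TPM of 10 neutrophil markers on a log axis in the last panel; blue is fed and red fasted. Fed libraries 1 and 2 are apart from fed libraries 3 and 4 in Lamp1, Psap, Wipi1, Hexa and Lipa and have the highest marker sums, 169000 and 174000 TPM.

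Set side by side, single genes gave the following calls. Ctsl was called higher in hepatocytes at 4 h and 12 h and, in TPM as deposited, in marrow at 17 h, where its sign changed under rescaling. Its 4 h call in hepatocytes was lost without single libraries. Ulk1 and Atg2a were called higher in hepatocytes at both times and in marrow at 17 h under every rescaling, but not in marrow at 4 h or in the spinal cord. The Ulk1 calls in hepatocytes were lost without single libraries and with a replicate block. For both genes the fed 17 h marrow libraries, which stand apart, were below all 18 other marrow libraries. Lipa was the gene called lower in marrow at 4 h, was not called in hepatocytes, where it stood at 183 ± 5.81 TPM fed and 154 ± 31.7 TPM fasted at 4 h and at 244 ± 8.27 TPM fed and 299 ± 7.56 TPM fasted at 12 h, and was lower in the spinal cord with fed libraries 3 and 4 alone. Whether these differences between tissues pass a test was not tested, since the experiments were separate sets of files.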

How the data were processed

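Hepatocyte and monocyte RNA was sequenced in 39 libraries, in 12 groups of 5 experiments. Per the submitters' processing notes, reads were quantified with kallisto 0.44.0 and the genome build was GRCm38; the sources used here do not give the annotation, the summing of transcripts or the gene filter. The deposited values are TPM per gene, summing to 982922 to 994023 in a library, which leaves depth unknown and counting error without an estimate. Per the labels' protocols, hepatocytes were isolated by perfusion and centrifugation and monocytes by sorting. Because the deposited unit is TPM, no count test was used.

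Rows with a date in place of a symbol (13 to 15 in an experiment) were left out. Genes with a mean of at least 1 TPM were tested on log2(TPM + 1), a scale that understates changes of low genes, with limma 3.58.1 in R 4.3.3 (trend and robust moderation), and p-values were adjusted by Benjamini-Hochberg over all genes of an experiment. Hepatocyte libraries shared 1 fit; monocyte experiments were fitted separately. The script was tested on simulated data. Values per library were given for called genes whose groups did not overlap, averaging 10 TPM or more in the higher group (the 6 highest and 6 lowest log2 differences), and for 12 key genes. The genes and lists were chosen with earlier results of these data known. Rescaling, filters, pseudocount, variance model, a replicate block and left-out libraries were tried; removal of either length trend was chosen after seeing the data.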

Additional observations from a re-analysis of the deposited data

Results flagged for a closer look

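In groups of at least 4 libraries, 5 of 70 combinations of gene and group held 1 library far from the rest, where chance gives about 1 in 20. Wipi1 was at 10.6 TPM in fasted marrow library 1 at 4 h, against 6.85 to 7.34 TPM in the other libraries of its group. Ctsl was at 41.9 TPM in fasted marrow library 4 at 4 h, against 43.4 to 43.6 TPM. Gabarapl1 was at 32.5 TPM in fed marrow library 3 at 4 h, against 27.6 to 28.3 TPM. Fasted marrow library 4 at 17 h held 21 TPM of Atg2a, against 11.2 to 12.4 TPM, and 56.6 TPM of Atg13, against 35.9 to 38.5 TPM.

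In hepatocytes the fasting difference changed between 4 h and 12 h, by the interaction test, for Atg12 (1.23), Gabarapl1 (-0.81), Wipi1 (1.39), Bnip3 (1.88), Ctsb (-0.28), Ctsd (0.43), Ctsl (1.54), Ctss (2.72) and Grn (1.68), all as log2 differences, 12 h minus 4 h. The fed libraries, which also differed between the times, enter each of these values. Calls of Ctsd and Wipi1 were lost with either length trend removed, that of Ctsb without single libraries and that of Atg12 with a replicate block. Over all alternatives their adjusted p in limma reached 0.76, 0.098, 0.16 and 0.064.

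In marrow monocytes it changed between 4 h and 17 h upward for Ulk1 (2.68), Atg2a (3.13), Atg13 (2.76), Gabarapl1 (1.58), Sqstm1 (2.00), Nbr1 (3.02), Wipi1 (2.05), Rb1cc1 (2.54), Bnip3 (0.90), Tfeb (1.83), Lamp1 (1.41), Ctsb (1.55), Ctsd (1.84), Ctsl (0.87), Ctss (0.28) and Gaa (2.58). It changed downward for Map1lc3b (-0.99), Gabarap (-0.78) and Gabarapl2 (-0.80). The fed 17 h libraries, which stand apart, enter each of these values.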

How the results depend on the processing

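Over the alternatives, 1443 of 1552 values of named genes kept their direction and their side of the threshold, 93 lost the call and 16 changed sign. With 1 library left out, called genes numbered 22 to 30 in hepatocytes at 4 h, 20 to 23 at 12 h and 16 to 27 for the change between them, 0 to 1 in marrow at 4 h, 45 to 47 at 17 h and 43 to 46 for the change between them, 0 to 9 for CCR2-/- and 0 to 0 in the spinal cord. Over all comparisons, correlations of same-numbered deviations ran from -0.341 to 0.322. In the CCR2-/- experiment they were 0.322, -0.079 and 0.321, which does not settle whether replicate numbers pair its libraries. With the number as a replicate block, calls were 13 for the hepatocyte change between times (1227 over all genes) and 0 in marrow at 4 h (27). For CCR2-/- they were 12, 3 higher and 9 lower, and 1423 over all genes. In marrow at 4 h the fits without trend and without robust moderation gave 0. For CCR2-/-, quantile normalization gave 1, centring 1, no trend 0, the median length trend removed 4 and the longest 5. In the spinal cord, centring and either length trend gave 1 each, and fed libraries 3 and 4 alone gave 3. Signs changed in marrow at 17 h for Bnip3 after centring (-0.17), Ctsb with the median (-0.25) or longest (-0.14) length trend removed, Ctsl after centring (-0.11) or with the longest trend removed (-0.62), and Ctss after centring (-0.60) or with the median trend removed (-0.10). In the marrow change between times they did so for Bnip3 after quantile normalization (-0.02) or centring (-0.24), Ctsb with the median (-0.23) or longest (-0.13) trend removed, Ctsl after quantile normalization (-0.15), centring (-0.27) or removal of the longest trend (-0.82), and Ctss after centring (-0.87) or removal of the median trend (-0.34). The cause was not tested. Groups of 2 to 4 libraries and an unknown depth limit the precision.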
